A study of Mus musculus with 3 samples.

Results

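The genes described here have symbols of motile cilium and axoneme families, and not all of them encode axoneme parts. They were taken by symbol, as every counted gene named Cfap, Dnah, Dnai, Dnaaf, Tekt, Rsph or Drc followed by a number. The rule uses no measured values, but it was chosen with earlier results of these data known. This gave 72 of 17992 counted genes: 33 Cfap genes, 15 dynein heavy chains (Dnah), 7 radial spoke genes (Rsph), 6 dynein assembly factors (Dnaaf), 4 dynein intermediate chains (Dnai), 4 tektins (Tekt) and 3 genes of the nexin-dynein regulatory complex (Drc). Brain RNA was sequenced from adult C57BL/6 mice, all wild type, in 3 groups: sham, vehicle (the model of middle cerebral artery occlusion) and AGNHW at 3 mg/g/d. AGNHW stands for Angong Niuhuang Wan, a formula of traditional Chinese medicine. The labels do not say whether the AGNHW mice were also occluded, and the sources used here do not give the brain region, the sex, the time after occlusion or the number of mice behind a library. With 1 library in each group, no difference has a replicate check and the conditions were not tested, and "higher" and "lower" describe these libraries.

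Motile cilia beat through dynein motors that slide the paired microtubules of the axoneme past each other. Outer and inner dynein arms supply the force, radial spokes and the central pair of microtubules pass on control signals, the nexin-dynein regulatory complex limits sliding, and tektins and many Cfap proteins (cilia and flagella associated proteins) line the inside of the microtubules. Assembly factors put the arms together in the cytoplasm before they enter the cilium. In the brain, ependymal cells that line the ventricles carry tufts of motile cilia that move cerebrospinal fluid, choroid plexus epithelium is ciliated as well, and the transcription factors Foxj1 and the RFX family switch on the program. Most neurons and astrocytes carry a single primary cilium, which lacks dynein arms.

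The libraries held between 15718594 and 18286151 counts, and all 10 neuronal markers and all 10 astrocyte markers were measured in them. Levels are counts per 1000000 library counts (CPM) after TMM scaling, which uses a trimmed mean of the genes' log ratios between libraries. The vehicle library stood apart by pituitary transcripts. Its 7 counted pituitary markers summed to 3745 CPM, against 4.41 CPM for sham and 4.60 CPM for AGNHW. Gh and Prl, the genes of growth hormone and prolactin, and the receptor gene Ghrhr were at 0 in sham and Cga was at 0 in AGNHW. All 3 comparisons held a trend with transcript length across all genes. The median log2 ratio for transcripts of up to 2500 nt and for those over 5000 nt was 0.27 and -0.36 in vehicle against sham, -0.13 and 0.16 in AGNHW against vehicle, and 0.13 and -0.19 in AGNHW against sham. AGNHW thus lay between sham and vehicle in this trend.

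As a set, the 72 genes had nearly the same summed level in every library. In the order sham, vehicle and AGNHW the sum was 571, 587 and 575 CPM. Dnaaf9, the member with the highest CPM, alone gave 79.0, 51.5 and 64.9 CPM of these sums. Without it the sum was lowest in sham and highest in vehicle, so the flat sum rests on this gene. The ratio of the sums was 1.03 between vehicle and sham, with a 95% counting interval of 0.9996 to 1.06. It was 0.979 between AGNHW and vehicle (0.952 to 1.01) and 1.01 between AGNHW and sham (0.980 to 1.03). In bulk tissue, fewer ciliated cells and less RNA per cell cannot be told apart. The flat sum held members that differed in opposite directions. In vehicle against sham, 3 of 4 tektins (Tekt1, Tekt2 and Tekt4) were called higher, as were 8.66% of all measured genes. Dnah5, Dnah7b and Cfap44 were among the members called lower, as were 14.2% of all measured genes. Of these named members, Tekt4 and Cfap44 alone were still called after a correction for transcript length and GC content.

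Promoter sequence is shown for the 4 tektins, which had ratios above 1 together in vehicle against sham, and for Cfap44, which was lower there. RFX factors bind a palindromic X-box whose half-site is GTTGCC, read as GGCAAC on the other strand. The sequences are the 120 bases just before the RefSeq start, 5′ to 3′ on the gene's strand in build GRCm38.p6, with half-sites in capitals. Where a gene has several starts, the one whose stretch held most half-sites is shown.
Tekt1: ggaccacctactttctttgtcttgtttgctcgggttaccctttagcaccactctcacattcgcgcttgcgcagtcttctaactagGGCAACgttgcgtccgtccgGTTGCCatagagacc
Tekt2: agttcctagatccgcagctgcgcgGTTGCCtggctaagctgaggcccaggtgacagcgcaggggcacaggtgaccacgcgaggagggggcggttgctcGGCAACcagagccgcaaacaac
Tekt4: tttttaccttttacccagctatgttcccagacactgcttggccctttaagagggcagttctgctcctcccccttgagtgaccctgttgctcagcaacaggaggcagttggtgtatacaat
Tekt5: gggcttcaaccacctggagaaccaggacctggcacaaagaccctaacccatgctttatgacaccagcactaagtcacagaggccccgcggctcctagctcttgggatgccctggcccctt
Cfap44: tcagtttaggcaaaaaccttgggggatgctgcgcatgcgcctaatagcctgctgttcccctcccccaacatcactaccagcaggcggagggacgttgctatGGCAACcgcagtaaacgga
These stretches lie at chr11:72361883-72362002 for Tekt1 and chr4:126325689-126325808 for Tekt2, both on the minus strand. Those of Tekt4 (chr17:25471470-25471589) and Cfap44 (chr16:44394679-44394798) are on the plus strand, and that of Tekt5 (chr16:10395456-10395575) is on the minus strand. Tekt1 held half-sites that begin 35 and 15 bases before the start, Tekt2 had them at 96 and 22 bases, and Cfap44 had 1 at 19 bases and a further one outside the stretch shown. The other annotated start of Tekt1 had no half-site in its window, and a further annotated start of Tekt2 had none either. In Tekt4 the half-site begins on base 9 of the transcript, outside the stretch shown, and none was found in the promoter window of Tekt5.

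Among the members, 54 had a RefSeq promoter entry, with 60 promoter windows of 300 bases that span a start. The half-site GTTGCC was in 24 of these 60 windows (40.0%), against 12.5% of all 32851 mouse windows of that length. Longer X-box letters were rare. The full palindrome, GTTNCC and its reverse complement joined by AT, was in 0 of 60 member windows and 0.128% of all windows. With any 2 bases at the join it was in 2 of 60 (3.33%) and 0.451%. GTTGCC followed by ATGG was in 3 of 60 (5.0%) and 0.563%, and CATGGNAAC was in 7 of 60 (11.7%) and 1.93%. The forkhead letters TGTTTAC were in 3 of 60 member windows (5.0%) and 3.65% of all windows. Both strands were searched, these motifs overlap each other except for the forkhead letters, and some windows of a gene overlap. The half-site was present in members that were higher in vehicle (Tekt1, Tekt2, Tekt4, Cfap97d2) and in members that were lower there (Cfap44, Dnah7b). It was absent from others that were higher (Dnaaf3, Dnah14, Rsph9) or lower (Dnah5, Cfap45, Cfap69). Of the 54 members with a promoter entry, 22 held it.

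Levels differed widely among the members. The median of the mean CPM, with no regard to length, was 3.76 against 14.4 for all counted genes, and 17 members reached 10 CPM. Per kilobase of transcript, Cfap36 and Cfap410 had the highest levels of the 67 members with a known length, at 30.1 and 29.9 CPM per kb. Cfap20, a doublet microtubule protein found in primary as well as motile cilia, followed at 15.7 CPM per kb. Cfap298, which takes part in dynein arm assembly, had 14.3 CPM per kb, with 53.6% of its exon bases under another gene, and the spoke head gene Rsph9 had 13.8 CPM per kb. The dynein heavy chains, which are the motors themselves, ran on this scale from 0.0367 CPM per kb for Dnah8 to 1.26 CPM per kb for Dnah1. Of the 72 members, 58 reached a mean of 1 CPM and are called measured here. The other 14 stayed under it: Cfap47, Cfap53, Cfap57, Cfap58, Cfap77, Cfap221, Cfap299, Dnaaf1, Dnaaf2, Dnah3, Dnah8, Dnah12, Dnai3 and Rsph6a. They were not compared singly. The plot of levels by library shows the spread of each measured member.

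**Figure D1:**
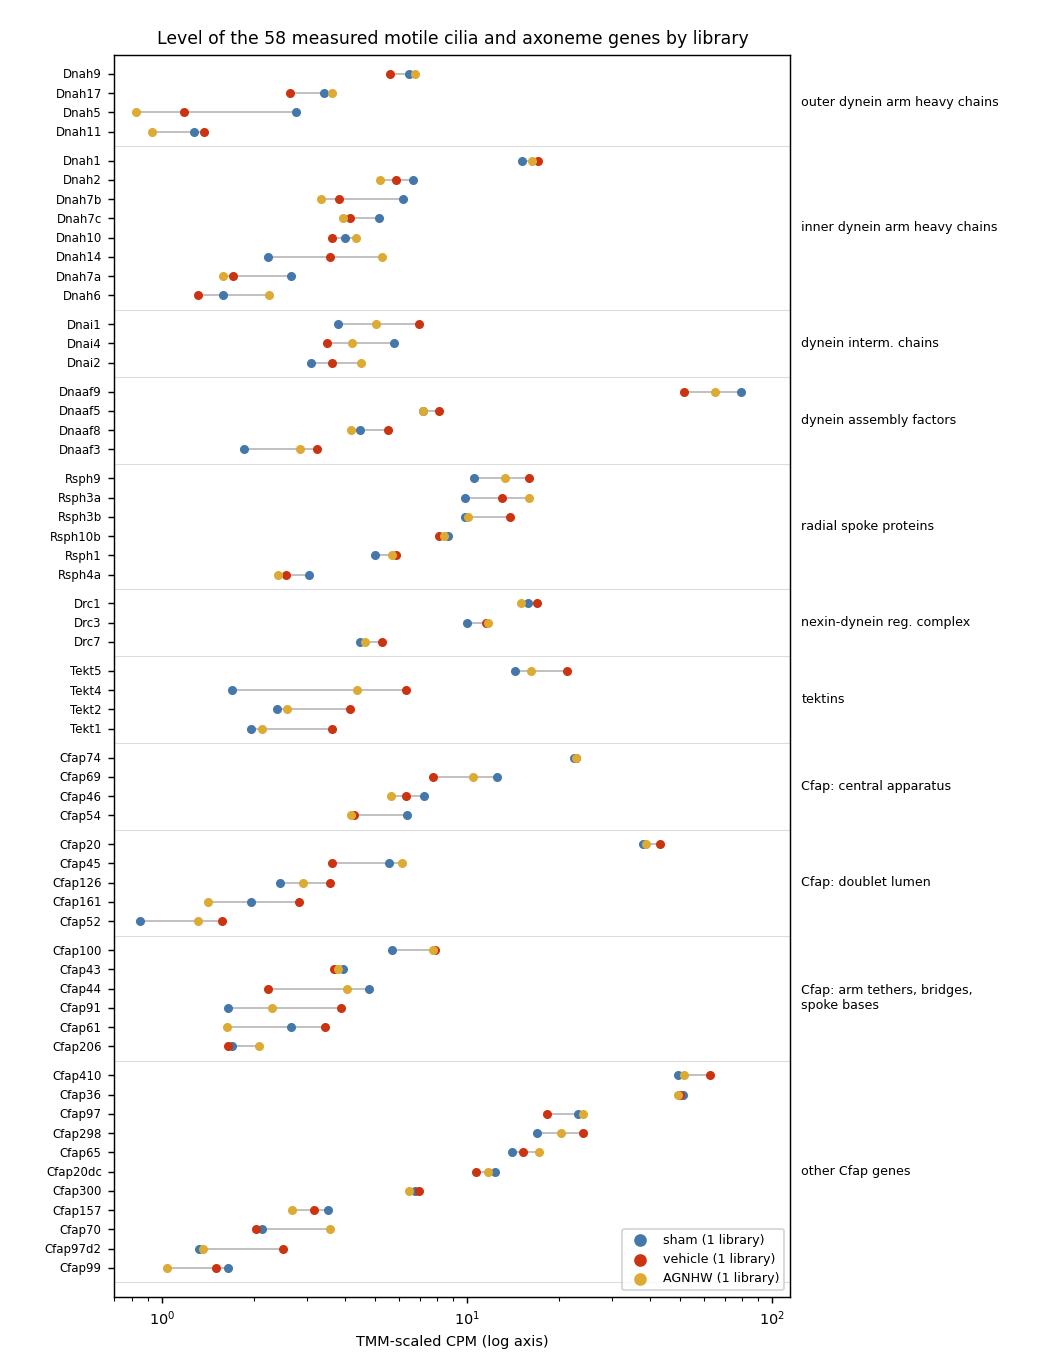
TMM-scaled CPM (log axis) of the 58 measured members, 1 row per gene, ordered by structural role and by level; each point is 1 library and the grey line joins the lowest and the highest. Cfap74, Cfap36 and Drc1 have points that nearly coincide, whereas Tekt4 runs from 1.70 CPM in sham to 6.31 CPM in vehicle.

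A member was called higher or lower by a size rule with 3 conditions: a ratio of at least 1.5 either way, a mean of 1 CPM or more, and a 95% exact binomial counting interval that leaves out a ratio of 1. Intervals cover counting error only. By this rule 22 of the 58 measured members were called in at least 1 of the 3 comparisons and 36 in none. The matching share of all genes was not computed, so this count does not set the members apart. Shares of all genes are given for each comparison below. The comparisons share libraries: vehicle enters the first and the second comparison, sham the first and the third, AGNHW the second and the third. A library that is high for a gene therefore moves both ratios it enters. Because of the length trend, a corrected log2 ratio is also given, from which a smooth trend with transcript length and GC content over all genes was taken away.

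Vehicle against sham is the contrast of arterial occlusion with its control. Of the 58 measured members, 9 were higher in vehicle (15.5%, against 8.66% of all 15558 measured genes) and 7 were lower (12.1%, against 14.2%). The median log2 ratio of the members was 0.10, and that of all measured genes was 0.01. Higher were Tekt1, Tekt2, Tekt4, Cfap91, Cfap97d2, Dnai1, Dnaaf3, Dnah14 and Rsph9. Lower were Dnah5, Dnah7b, Dnai4, Dnaaf9, Cfap44, Cfap45 and Cfap69.

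AGNHW against vehicle is the contrast of the preparation with the occlusion model. Here 3 members were higher in AGNHW, against 4.01% of all measured genes, and 6 were lower, against 2.56%. As shares of the 58 members these were 5.17% and 10.3%. The higher ones were Cfap44, Cfap45 and Cfap70, and the lower ones Tekt1, Tekt2, Cfap61, Cfap91, Cfap97d2 and Cfap161. The median log2 ratio of the members was -0.10 and that of all measured genes 0.00.

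Between AGNHW and sham 4 members were higher (6.90%, against 3.32% of all measured genes), namely Tekt4, Dnah14, Rsph3a and Cfap70. The 5 lower ones (8.62%, against 5.47%) were Dnah5, Dnah7a, Dnah7b, Cfap54 and Cfap61. The median was 0.04, against -0.00 for all measured genes. For 6 members the vehicle library was called apart from both others: above them for Tekt1, Tekt2, Cfap91 and Cfap97d2, and below them for Cfap44 and Cfap45. The share of all genes called in this way was not computed. By CPM alone, vehicle was the highest library for 27 of the 58 measured members and the lowest for 15. The plot of ratios with their counting intervals shows the 22 called members side by side.

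**Figure D2:**
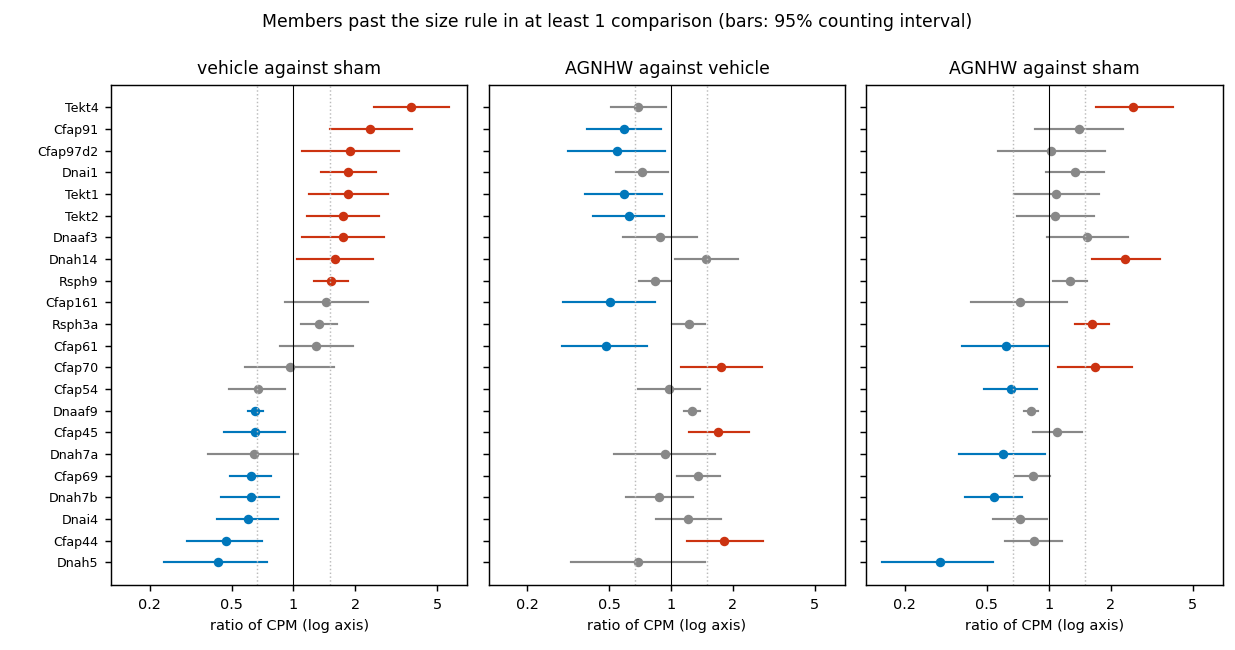
Ratio of TMM-scaled CPM (log axis) for the 22 members called in at least 1 comparison, in 3 panels, 1 for each pair of libraries; bars are 95% counting intervals, red is called higher, blue called lower, grey not called, and dotted lines mark 1.5-fold. Tekt4 has the highest ratio of vehicle to sham at 3.71 and Dnah5 the lowest ratio of AGNHW to sham at 0.297.

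Tektins form filaments along the inner wall of the doublet microtubules. All 4 had a ratio above 1 in vehicle against sham, and all 4 had a ratio below 1 in AGNHW against vehicle. Scaled to the ependymal markers, which shifts the median of all genes by -0.55, Tekt5 in vehicle against sham came to -0.00 (log2), and to 0.54 when scaled to those markers without Tppp3. In the order sham, vehicle and AGNHW the summed level was 20.4, 35.3 and 25.4 CPM. Tekt4 had 32 counts in sham, 96 in vehicle and 80 in AGNHW, which is 1.70, 6.31 and 4.38 CPM. It was low in sham alone: vehicle was 3.71-fold higher (2.46 to 5.72) and AGNHW 2.58-fold higher (1.69 to 4.01). Tekt4 was the only tektin still called after correction, at log2 ratios of 1.26 and 1.0. Tekt1 had 37, 55 and 39 counts in the same order, so that vehicle was 1.84-fold above sham (1.19 to 2.87) and AGNHW 1.69-fold below vehicle (1.10 to 2.62). Tekt2 followed the same order with 45, 63 and 47 counts, a 1.73-fold higher level in vehicle than in sham (1.16 to 2.60) and a 1.61-fold lower one in AGNHW than in vehicle (1.09 to 2.40). For both genes the vehicle library was high and the other 2 lay close together, with ratios of AGNHW to sham of 1.09 and 1.08. The correction ended the calls of both, at 0.46 for Tekt1 and 0.32 for Tekt2 in vehicle against sham, and -0.52 and -0.43 in AGNHW against vehicle. Tekt5, the tektin with the highest level per length (9.59 CPM per kb), had 14.3, 21.2 and 16.3 CPM and stayed just short of the rule in vehicle against sham at 1.48 (1.26 to 1.75). In the annotation, 20.8% of the exon bases of Tekt2 lie under another gene, and without a known strand setting reads there may belong to either.

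Dynein heavy chains carry the motor domain. Of the 15 members 12 were measured. The summed level was 59.9 CPM for sham, 53.8 CPM for vehicle and 56.6 CPM for AGNHW. In vehicle against sham 9 of the 12 had a ratio below 1, with a median log2 ratio of -0.22. Their transcripts are all over 5000 nt, and of all 3189 measured genes in that class 2518 had a ratio below 1, with a median of -0.36. Corrected, the heavy chains had a median of 0.10. In the outer arm, Dnah5, whose loss is a common cause of primary ciliary dyskinesia, had 52 counts in sham, 18 in vehicle and 15 in AGNHW. Sham alone was high: vehicle was 2.34-fold lower (1.34 to 4.24) and AGNHW 3.36-fold lower (1.87 to 6.43). After correction Dnah5 was called in AGNHW against sham (-1.14) and no longer in vehicle against sham (-0.50). The outer arm partner Dnah9 differed little, with 6.48, 5.59 and 6.79 CPM in sham, vehicle and AGNHW and a ratio of vehicle to sham of 0.862 (0.646 to 1.15). Dnah17 and Dnah11 had ratios of 0.773 (0.507 to 1.17) and 1.08 (0.573 to 2.03), with 64 and 24 counts in sham.

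In the inner arm, Dnah7b had 116, 58 and 61 counts in sham, vehicle and AGNHW, and was 1.62-fold lower in vehicle (1.17 to 2.26) and 1.85-fold lower in AGNHW (1.34 to 2.56) than in sham. Its copies Dnah7a (50, 26 and 29 counts) and Dnah7c (97, 63 and 72 counts) had the same order of sham over the other 2, and Dnah7a was called in AGNHW against sham at 1.67-fold lower (1.04 to 2.74). The correction ended both calls of Dnah7b, at -0.01 against sham in vehicle and -0.47 in AGNHW, and that of Dnah7a, at -0.30. These genes are uncertain as single genes, because 30.3% to 38.8% of the 50-base stretches of one copy also occur in another. Dnah14, listed with the inner arm chains, went the other way, with 42, 54 and 96 counts. It was 1.59-fold higher in vehicle (1.04 to 2.44) and 2.36-fold higher in AGNHW (1.62 to 3.47) than in sham, so that its level was lowest in sham and highest in AGNHW. Both calls held after correction (1.28 and 1.53). With plain CPM the first of these was no longer called (log2 ratio 0.53), and Dnah14 was called in AGNHW against vehicle. Dnah1, the heavy chain with the highest level per length, had 15.2, 17.2 and 16.4 CPM and a ratio of vehicle to sham of 1.13 (0.951 to 1.34). Dnah2, another inner arm chain, had 6.64, 5.85 and 5.20 CPM and was not called.

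Intermediate chains hold the motors to the microtubule. Dnai1, of the outer arm, had 71 counts in sham, 106 in vehicle and 92 in AGNHW, which made vehicle 1.85-fold higher than sham (1.35 to 2.53), also after correction (0.67). Its outer arm partner Dnai2 had 58, 55 and 82 counts and a ratio of 1.17 (0.796 to 1.73). Dnai4 was 1.66-fold lower in vehicle than in sham (1.19 to 2.35), with 109, 53 and 77 counts. The intermediate chains therefore did not share 1 direction.

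Of the assembly factors, Dnaaf9 had the highest CPM of all members, with no length to set it against, at 79.0, 51.5 and 64.9 CPM in sham, vehicle and AGNHW. It was 1.53-fold lower in vehicle than in sham (1.40 to 1.67), with AGNHW between the other 2. Dnaaf3 had 35, 49 and 52 counts and was 1.73-fold higher in vehicle (1.10 to 2.75), with sham the low library, and 16.5% of its exon bases lie under another gene. The correction ended that call (0.35). Dnaaf5 and Dnaaf8 had ratios of vehicle to sham of 1.13 (0.876 to 1.45) and 1.24 (0.903 to 1.69).

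Radial spokes reach from the doublets toward the central pair. The spoke genes summed to 47.5 CPM for sham, 59.7 CPM for vehicle and 56.8 CPM for AGNHW. The median log2 ratio of vehicle to sham was 0.31, and it turned to -0.24 when scaled to the ependymal markers but was 0.30 when scaled to them without Tppp3. After correction it was 0.04. Rsph9, of the spoke head, was 1.52-fold higher in vehicle (1.25 to 1.84), with 199, 244 and 244 counts. Plain CPM ended that call at a log2 ratio of 0.50, and the correction turned it from 0.59 to -0.04. Rsph3a and Rsph3b, near-identical genes for a spoke stalk protein, both had 185 counts in sham. They parted in AGNHW, at 291 counts for Rsph3a and 184 for Rsph3b, so that Rsph3a was 1.62-fold higher than in sham (1.34 to 1.96) and Rsph3b had a ratio of 1.02 (0.831 to 1.26). The transcripts share 74% of the 50-base stretches of Rsph3a, so the split of reads between them is uncertain. The correction ended the call of Rsph3a (0.52). Rsph1 and Rsph4a, of the spoke head, were not called in any comparison.

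The nexin-dynein regulatory complex was even across the libraries. Drc1, a core subunit, had 15.8, 17 and 15.1 CPM in sham, vehicle and AGNHW. Drc3 had 10.04, 11.6 and 11.7 CPM and Drc7 had 4.46, 5.26 and 4.65 CPM. The widest ratio among these 3 genes was 1.18 (0.857 to 1.62), for Drc7 in vehicle against sham.

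Cfap genes of the central apparatus leaned lower in vehicle, with 3 of 4 measured genes below a ratio of 1 and a median log2 ratio of -0.37. After correction that median was 0.0013. Cfap69 had 236 counts in sham, 118 in vehicle and 192 in AGNHW, and was 1.62-fold lower in vehicle than in sham (1.29 to 2.03), a call that the correction ended (-0.08). Cfap54, with 120, 65 and 76 counts, was 1.53-fold lower in AGNHW than in sham (1.14 to 2.07), and its ratio of vehicle to sham was 0.670 (0.488 to 0.914), short of 1.5-fold. Its call ended with the correction (-0.26). Cfap74 was level, at 22.4, 22.8 and 22.8 CPM. Its ratio of vehicle to sham was 1.02 (0.880 to 1.18). Cfap46, with 7.23, 6.31 and 5.64 CPM, was lower than in sham in both other libraries but not called.

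Among Cfap proteins inside the doublet, Cfap45 was low in vehicle alone, with 105, 55 and 112 counts in sham, vehicle and AGNHW. It was 1.54-fold lower in vehicle than in sham (1.10 to 2.18) and 1.70-fold higher in AGNHW than in vehicle (1.22 to 2.39). Cfap161 had 37, 43 and 26 counts and was 1.99-fold lower in AGNHW than in vehicle (1.19 to 3.37). Cfap126 and Cfap20 were not called in any comparison.

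Cfap44 helps tether an inner arm dynein to the doublet together with Cfap43. It had 90 counts in sham, 34 in vehicle and 74 in AGNHW, 2.14-fold lower in vehicle than in sham (1.43 to 3.28) and 1.81-fold higher in AGNHW than in vehicle (1.19 to 2.81). Cfap43 had 74, 56 and 69 counts and a ratio of vehicle to sham of 0.936 (0.650 to 1.34). Cfap100, which also serves inner arm dyneins, had 5.69, 7.89 and 7.78 CPM and was not called. Cfap91 and Cfap61 belong to the complex at the base of a radial spoke. Cfap91 was high in vehicle, with 31, 59 and 42 counts, 2.35-fold above sham (1.5 to 3.76), and AGNHW was 1.69-fold below vehicle (1.12 to 2.57). Cfap61 was low in AGNHW, with 50, 52 and 30 counts. It was 2.08-fold below vehicle (1.30 to 3.38) and 1.62-fold below sham (1.01 to 2.63), and after correction the first call held (-1.03) and the second did not (-0.54).

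Among the remaining Cfap genes, Cfap410 had 49.2, 62.5 and 51.5 CPM, and Cfap36 had 51.1, 49.9 and 49.1 CPM. Cfap97 had 23.2, 18.3 and 24.0 CPM, with vehicle the low library. None of these 3 was called. Cfap70, linked to the outer arm, was high in AGNHW with 40, 31 and 65 counts, 1.75-fold above vehicle (1.12 to 2.77) and 1.67-fold above sham (1.11 to 2.55). Cfap97d2 was high in vehicle with 25, 38 and 25 counts, 1.88-fold above sham (1.11 to 3.25), and AGNHW was 1.83-fold below vehicle (1.07 to 3.15). The correction ended both calls, at 0.48 and -0.58.

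The ratios of the members moved with transcript length, as those of all genes did. Lengths ran from 966 nt (Rsph9) to 15637 nt (Dnah5) over 54 measured members. Across these genes, which are not independent replicates and share the same 2 libraries, Pearson's r between log10 length and the log2 ratio of vehicle to sham was -0.58, and Spearman's rho was -0.63. Across all 15434 measured genes with a length the values were -0.42 and -0.48. The 23 members with transcripts of up to 2500 nt had a median log2 ratio of 0.45, with 6 higher (26.1%) and 1 lower (4.35%). All genes of that class had a median of 0.27, with 17.5% higher and 4.95% lower. The 18 members over 5000 nt had a median of -0.20, with 1 higher (5.56%) and 3 lower (16.7%). All genes of that class had a median of -0.36, with 1.29% higher and 31.5% lower. In AGNHW against vehicle the sign was turned, with medians of -0.22 and -0.02 for the same classes, and r was 0.34 for the members and 0.31 for all genes. In AGNHW against sham r was -0.36 for the members and -0.31 for all genes. The class medians of the members there were 0.18 and -0.14, and of the 18 long ones 1 was higher and 4 were lower (22.2%), against 0.847% and 10.4% of all long genes.

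**Figure D3:**
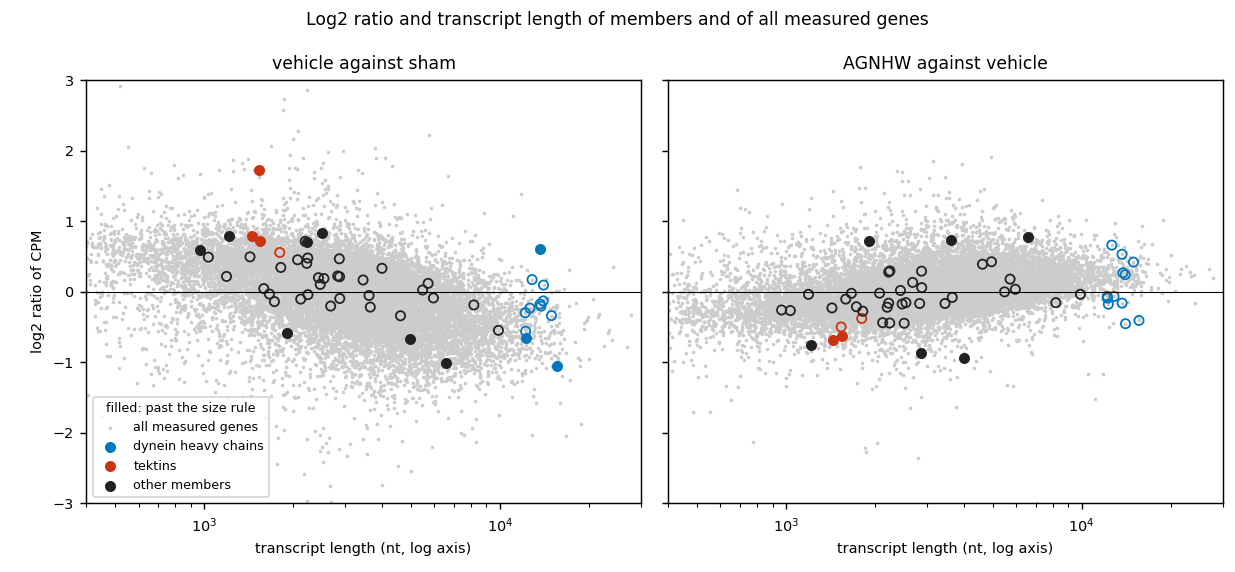
Log2 ratio of CPM against transcript length (nt, log axis) for vehicle against sham and AGNHW against vehicle; grey points are all measured genes within the axes, blue marks dynein heavy chains, red tektins, black other members, and filled symbols passed the size rule. In vehicle against sham the tektins lie at the upper left and most heavy chains at the lower right of the same downward trend, while Dnah14 lies above it.

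A smooth trend was fitted to the log2 ratios of 10073 genes of at least 10 CPM, with transcript length and GC content as its terms. It took up 50.2% of their variance for vehicle against sham, 29.1% for AGNHW against vehicle and 40.2% for AGNHW against sham. After correction, 4 of 54 members were higher in vehicle than in sham, against 4.15% of all genes, and 2 were lower, against 7.15%. Tekt4 (corrected log2 ratio 1.26), Dnah14 (1.28), Dnai1 (0.67) and Cfap161 (0.64) were the higher ones, and Cfap45 (-0.93) and Cfap44 (-0.58) the lower ones. Cfap161 was called only after correction. Cfap91, Dnai4 and Dnaaf9 had no matched length and no corrected value.

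In AGNHW against vehicle, 3 members were higher after correction, against 3.19% of all genes. They were Cfap45 (0.87), Cfap70 (0.66) and Cfap44 (0.58). The 2 lower ones, against 1.59%, were Cfap61 (-1.03) and Cfap161 (-0.95). In AGNHW against sham, Dnah14 (1.53), Tekt4 (1.0), Cfap70 (0.72) and Dnah6 (0.72) were higher, against 2.56%, and Dnah5 (-1.14) was lower, against 3.36%. Dnah6 was called there only after correction.

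Other genes of the pathway are given from lists. Foxj1, the master factor of motile ciliogenesis, had 318, 311 and 341 counts in sham, vehicle and AGNHW, and a ratio of vehicle to sham of 1.21 (1.03 to 1.42). Of the 17 listed factors of multiciliated cells and their centrioles 9 were measured, with 1 higher (Ccno) and 2 lower (Rfx3 and Rfx4) in vehicle than in sham. As shares of the 9 these were 11.1% and 22.2%, against 8.66% and 14.2% of all measured genes. Rfx3, an RFX factor of ciliated cells, was at 22.9, 13 and 13.6 CPM, so that its ratio to sham was 0.565 (0.475 to 0.671) in vehicle and 0.595 (0.507 to 0.697) in AGNHW. After correction Rfx4 alone of these factors was called in vehicle against sham, and none in AGNHW against sham, so that both calls of Rfx3 ended. Of 66 other listed axoneme genes, 44 were measured. Their median log2 ratio was 0.13 in vehicle against sham, where 9 were higher (20.5%, against 8.66% of all measured genes) and 2 lower (4.55%, against 14.2%). After correction 4 were higher and 1 lower, against 4.15% and 7.15% of all genes. The median was -0.16 in AGNHW against vehicle, where 0 were higher (against 4.01%) and 3 lower (6.82%, against 2.56%). None of the 3 was still called after correction.

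Lists shared with primary cilia had medians near 0. For 29 measured genes of intraflagellar transport, the conveyor that builds all cilia, the median log2 ratio of vehicle to sham was -0.05. Of them 1 was higher (3.45%, against 8.66% of all measured genes) and 2 were lower (6.90%, against 14.2%). For 33 genes of the primary cilium and the BBSome, the median was -0.08, with 1 higher (3.03%) and 7 lower (21.2%). After correction 0 were higher and 1 was lower, and for intraflagellar transport 0 and 0. The 21 genes of cytoplasmic dynein 1 and dynactin, which move cargo in all cells and are no axoneme parts, had a median of 0.18. Among them 3 were higher (14.3%) and 1 was lower (4.76%), and 1 was higher and 0 lower after correction. No difference between these lists and the axoneme genes was tested. The plot of log2 ratios by gene list shows that they overlap widely.

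**Figure D4:**
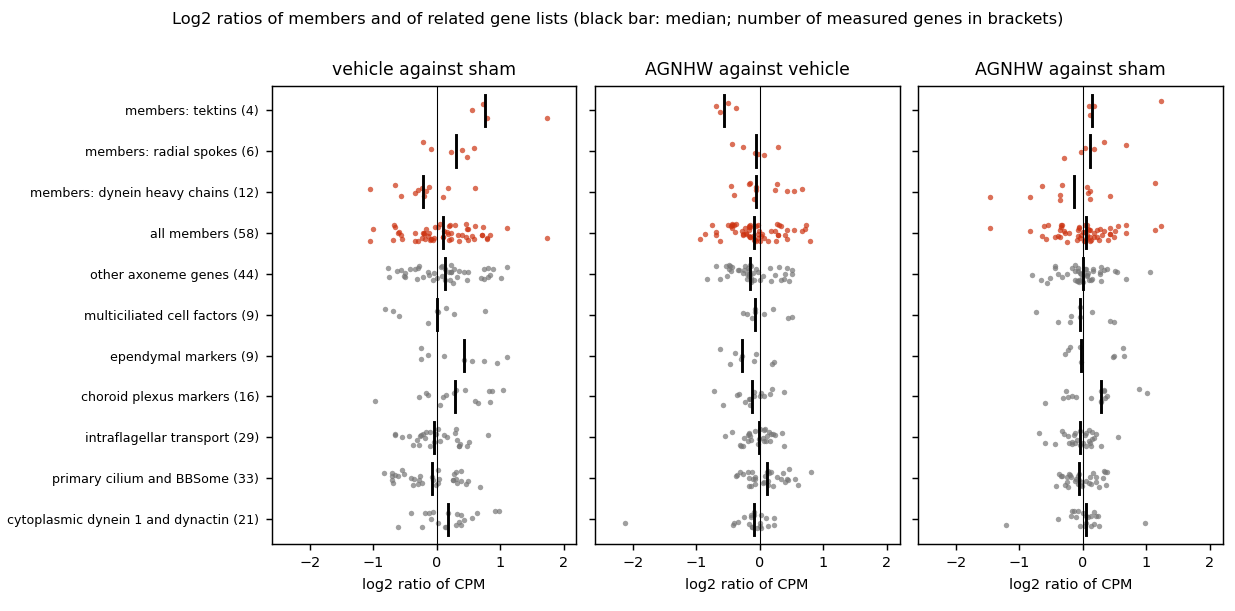
Log2 ratios of CPM for measured members (red) and related gene lists (grey) in 3 panels, 1 for each pair of libraries; each point is a gene and the black bar the median of its list. The tektin median is 0.76 in vehicle against sham and -0.57 in AGNHW against vehicle, while the median of all members stays at 0.10 and -0.10. Corrected for length and GC content, which is not plotted, the tektin medians are 0.39 and -0.35 and those of all members 0.09 and -0.06.

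Markers of ciliated cell types moved as follows beside these results. Of 14 listed ependymal markers, 11 were counted and 9 measured. Of the 9, 3 were higher (33.3%) and 0 lower in vehicle than in sham, against 8.66% and 14.2% of all measured genes. After correction 2 were higher and 2 lower, against 4.15% and 7.15%. The 11 counted markers summed to 131, 194 and 160 CPM in sham, vehicle and AGNHW. Tppp3, which other brain cells also express, gave 53.6, 116 and 83.4 CPM of these sums, and without it the sums were 77.4, 78.2 and 77 CPM, with a median log2 ratio of vehicle to sham of 0.27. Of 16 choroid plexus markers, all measured, 5 were higher (31.25%) and 1 lower (6.25%) in vehicle than in sham, against 8.66% and 14.2% of all measured genes. After correction 7 were higher and 1 was lower, against 4.15% and 7.15% of all genes. The sums of the choroid plexus markers, 792, 1206 and 883 CPM, were mostly Ttr, at 499, 914 and 610 CPM. No listed ependymal or choroid plexus marker that was counted was at 0. The part of these markers and of the pituitary transcripts in the ratios of the members was not tested.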

How the data were processed

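The authors deposited raw read counts per gene symbol for 1 library in each group. Build mm9 and the tools TopHat2 2.0.12, Bowtie2 2.2.3 and HTSeq 0.6.0 were used, per the submitters' processing notes; the sources used here do not give their settings or the strand mode. Every counted gene had at least 21 counts summed over the 3 libraries, so rarer genes were not analysed here. Groups follow the sample titles.

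Counts were scaled with TMM (edgeR 4.0.16, R 4.3.3). Ratios have exact conditional binomial 95% intervals; log2 ratios used a prior count of 5. Without molecular identifiers, reads can be copies of 1 molecule. The calculations were tested on simulated counts with known ratios, a known length trend and counting error only. That simulation held no variation between animals and no copied reads, so it does not show how often the size rule calls such differences. Lengths and GC content come from the longest coding transcript of GENCODE M21 (GRCm38), matched for 67 members, 5 of them through RefSeq synonyms; Cfap91, Dnaaf8, Dnaaf9, Dnai3 and Dnai4 had none. Promoters are from RefSeq (GRCm38.p6). Members with figures of their own were those past the size rule and the 3 highest of each role; Dnah6, Dnah7c, Dnah11, Rsph1 and Rsph4a were named after their values were seen. The length classes were also set after the data were seen. Members, motifs and lists were chosen with earlier results of these data known.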

Additional observations from a re-analysis of the deposited data

How the results depend on the processing

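No paired analysis was possible because each group had 1 library. For the same reason no library could be left out. In vehicle against sham, the 9 higher and 7 lower members became 4 and 2 with the length and GC correction, 2 and 3 with a minimum of 5 CPM, and 2 and 2 with a 2-fold rule. Of the 9 and 7, 8 and 5 had a length, and 3 and 2 of these were still called with the correction, which added 1 higher member. In AGNHW against vehicle, the 3 higher members became 5 with plain CPM, 6 with no minimum CPM, 1 with a minimum of 5 CPM and 0 with a 2-fold rule. The 6 lower ones, 5 of them with a length, became 2 with the correction, 0 with a minimum of 5 CPM and 1 with a 2-fold rule. In AGNHW against sham, the 4 higher members became 1 with a minimum of 5 CPM and 2 with a 2-fold rule. The 5 lower ones became 1 with the correction, 0 with a minimum of 5 CPM, 1 with a 2-fold rule, and 3 without the 15 members that have a near-identical copy or at least 10% of exon bases under another gene, an alternative chosen after seeing the data. Stricter rules leave fewer genes by construction, and the cause of the other shifts was not tested. Apart from the correction, the share of all genes called under these settings was not computed. The counts therefore do not show whether members changed more or less than other genes.

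The median log2 ratio of the members in vehicle against sham was 0.018 with plain CPM and -0.45 when scaled to the ependymal markers, a sum that includes Tppp3. In AGNHW against vehicle it was -0.049 with plain CPM, -0.037 with a minimum of 5 CPM and 0.15 when scaled to those markers. In AGNHW against sham it was -0.0061 with the correction and -0.23 when scaled to them. Without Tppp3, a choice made after seeing the data, the medians were 0.09, -0.08 and 0.05. With the correction, Rsph9 in vehicle against sham turned to -0.038. DESeq2 size factors changed no call among the 129 values of named members, and the prior count does not enter the calls. Among the same values plain CPM ended 2 calls and added 3. Those added were Cfap54 and Dnah7a, lower in vehicle than in sham, and Dnah14, higher in AGNHW than in vehicle. Over all members, plain CPM raised the higher calls in AGNHW against vehicle from 3 to 5, so this list is not complete. Depth limits the low members: 45 of the 72 had a mean under 5 CPM, and the counting interval of Dnah5 in vehicle against sham, with 18 counts in vehicle, ran from 1.34-fold to 4.24-fold lower.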
